A study of Mus musculus with 6 samples.

Results

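Glycosyltransferases build the sugar chains that coat the thymocyte surface, and the genes described here encode the families that start, branch, extend and cap these chains. They were chosen by gene symbol alone, as every gene of the deposited table named St3gal, St6gal, St8sia, Fut, Mgat1 to Mgat5, B4galt, B4galnt, B3galt, B3gnt, B3galnt, Galnt, Gcnt, C1galt, Man1a, Man1c or Man2a with its number or letter. This gave 99 of 22322 genes, with 98 different symbols, since St6galnac2 stands for 2 identifiers. RNA-Seq was performed on CD4+CD8+ double-positive (DP) thymocytes, the main population of the thymic cortex, sorted from untreated mice. The 3 control libraries came from Paxbp1 fl/fl littermates and the 3 cKO libraries from Paxbp1 fl/fl mice that also carried Lck-cre, all on the C57BL/6 background, of mixed sexes and 4 to 7 weeks of age. Both groups therefore carried the floxed allele, and they differed in a Cre transgene that the Lck promoter switches on in early thymocytes. The labels call the Paxbp1 fl/fl mice WT and the others Paxbp1 cKO; the former are called control here, and every direction below depends on these labels.

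Library totals ran from 18963775 to 26252248 counts, and a single count equalled 0.0381 to 0.0527 CPM (counts scaled to library size) before TMM scaling. All other CPM, apart from the floors given below, were also scaled between libraries by edgeR's TMM factors. On the first principal component, with 38.9% of the variance, the groups were separated. Control library 1 stood farther from the other control libraries (chi-square per degree of freedom 56.4 and 68.4) than these did from each other (19.8). Paxbp1 itself was at 40.1, 16.3 and 15.5 CPM in control libraries 1, 2 and 3 and at 38.8, 47.1 and 49.6 CPM in the libraries labelled cKO 1, 2 and 3. Only exon 8 is floxed and counts are per gene, so this level does not check the deletion. Markers of DP thymocytes and of other cells were summed in each library. The DP list, with 12 tested genes, summed to 15494 to 17686 CPM in the control libraries and 11665 to 13569 CPM in the libraries labelled cKO, with 0 genes called higher and 4 lower (Rag1, Cd3e, Cd8b1 and Cd3g, log2 fold changes -0.85 to -0.47), and Cd4, Cd8a and Cd8b1 were present in all 6 libraries. Macrophage markers had higher sums in the libraries labelled cKO, with 7 of 15 tested genes called higher and 0 lower, at 52.8 to 110.0 against 128 to 170.0 CPM. Adgre1, which encodes F4/80, was at 0 counts in the control libraries and at 2.19 to 2.40 CPM in the libraries labelled cKO, and Mertk was at 0 in all 6. DN and ISP markers summed to 88.5 to 129 against 146 to 177 CPM, with 3 of 8 tested genes called higher (Il2ra, Hes1 and Dtx1) and 0 lower. Hes1 rose most, from a mean of 7.83 to 54.1 CPM. Ptcra, the marker with the highest level, went the other way (means 76.8 and 61.9 CPM, log2 fold change -0.31), as did Kit (-0.93) and Lyl1 (-1.06), none of them called. Dendritic cell markers summed to 39.2 to 51.8 against 65.5 to 78.9 CPM, with 1 of 4 tested genes called higher. This was Bst2, which made up most of the sum (means 36.6 and 56.6 CPM). B cell markers summed to 42.5 to 46.4 against 26.8 to 31.2 CPM, with 1 of 2 tested genes called lower. This was Cd79b, which made up most of the sum (means 42.9 and 26.4 CPM), while Blk, the other, was higher and not called (0.479 and 2.03 CPM). Erythroid markers ranged from 27.5 to 141 and from 1.92 to 48.8 CPM, neutrophil markers did not exceed 0.312 CPM, and the sums of thymic epithelial and mature SP markers overlapped between the groups. The part of these markers in the results below was not tested.

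The chains on glycoproteins are mainly of the N-linked and the O-linked kind. N-glycans are put on asparagine as a preformed block, trimmed by mannosidases, and branched in a fixed order in which Mgat1 acts before the enzymes of the Man2a family, and these before Mgat2. O-glycans of the mucin type start with an N-acetylgalactosamine that a Galnt enzyme puts on serine or threonine, to which C1galt1 adds galactose to make core 1. Core 1 can then be branched to core 2 by Gcnt1 or capped with sialic acid by St3gal1, and cortical DP thymocytes are known for core 1 chains that lack the cap and bind peanut agglutinin, which mature thymocytes lose. Gangliosides, the sialylated glycolipids, are built by a further set that includes St8sia1 and B4galnt1. Branching by Mgat5 is known to set how strongly galectins hold surface receptors of T cells.

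Of the 99 genes, 23 had 0 counts in all 6 libraries and 76 had at least 1 count. The edgeR filter on low counts (filterByExpr) kept 59, and the 17 left out with a count held at most 55 counts over all libraries. With edgeR's quasi-likelihood test and p-values adjusted by Benjamini-Hochberg over all 11488 tested genes, 7 of the 59 passed an adjusted p of 0.05. Of these, 1 was higher in the libraries labelled cKO (1.69%), against 4.47% of all tested genes, and 6 were lower (10.2%), against 5.89%. With an absolute log2 fold change above 1 in addition, the threshold of the study, 0 were higher (background 1.53%) and 1 was lower (background 1.23%), namely Fut10, and DESeq2 and limma-voom gave the same counts. In CPM, the libraries labelled cKO were higher without overlap for 5 of the 59 (8.47%, background 15.7%). They were lower without overlap for 14 (23.7%, background 17.3%), while the groups of 40 overlapped. An unadjusted p below 0.05 was found for 6 higher and 11 lower genes, where it was found for 13.3% and 14.6% of all tested genes. The shares called higher were below and those called lower above the background, and since the difference from the background was not tested, nothing is read from it about the family. DESeq2 called 1 higher and 8 lower, where it called 953 and 987 of all tested genes, and limma-voom 1 and 6. The log2 fold change (cKO over control) was below 0 for 34 and above 0 for 25, with a median of -0.20 beside -0.0017 for all tested genes.

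Single libraries moved these numbers. Without control library 1, 5 genes were higher and 6 lower, while 1000 and 1030 of all tested genes were called. B4galt1 was then joined by St6galnac4, St8sia4, C1galt1c1 and B4galt3, and Galnt6 took the place of Man2a2; St6galnac4 and Galnt6 are named after their values were seen. Without the library labelled cKO 3, 0 were higher and 2 lower, beside 42 and 78 of all tested genes, and without control library 2 also 0 and 2, beside 178 and 235. Leaving out control library 3 gave 0 and 3 (all tested genes, 285 and 351), cKO 1 gave 0 and 4 (179 and 286), and cKO 2 gave 1 and 3 (332 and 413). Fut10 and Galnt2 were the only members called in every one of these 6 fits. The labels do not say whether the libraries came from separate mice, so p-values measure the spread between these libraries, and in bulk RNA a shift in the mix of cells cannot be told apart from a shift per cell.

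**Figure D1:**
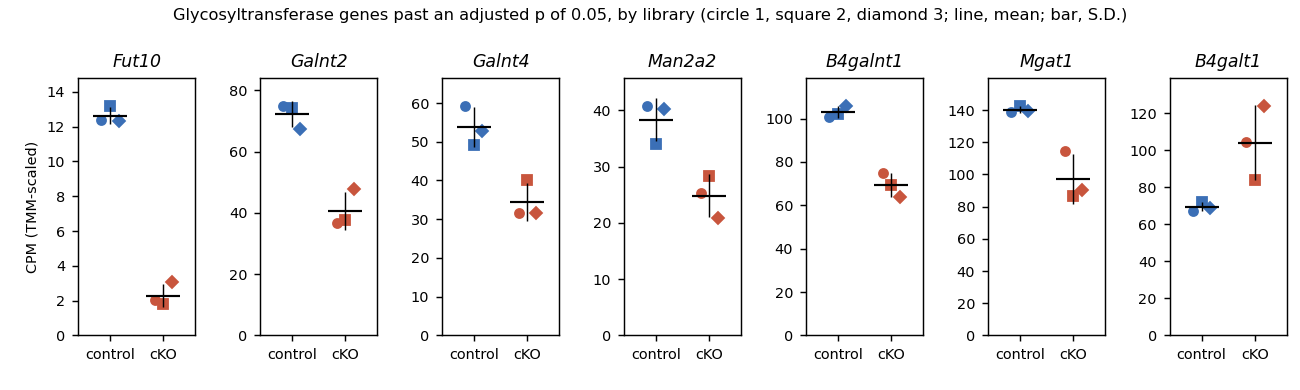
TMM-scaled CPM of the 7 called genes in each library (blue, control; red, labelled cKO; circle, square and diamond, libraries 1, 2 and 3; line, mean; bar, S.D.; each vertical axis starts at 0). In all 7 panels the groups do not overlap, and B4galt1 alone is higher in the libraries labelled cKO.

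**Figure D2:**
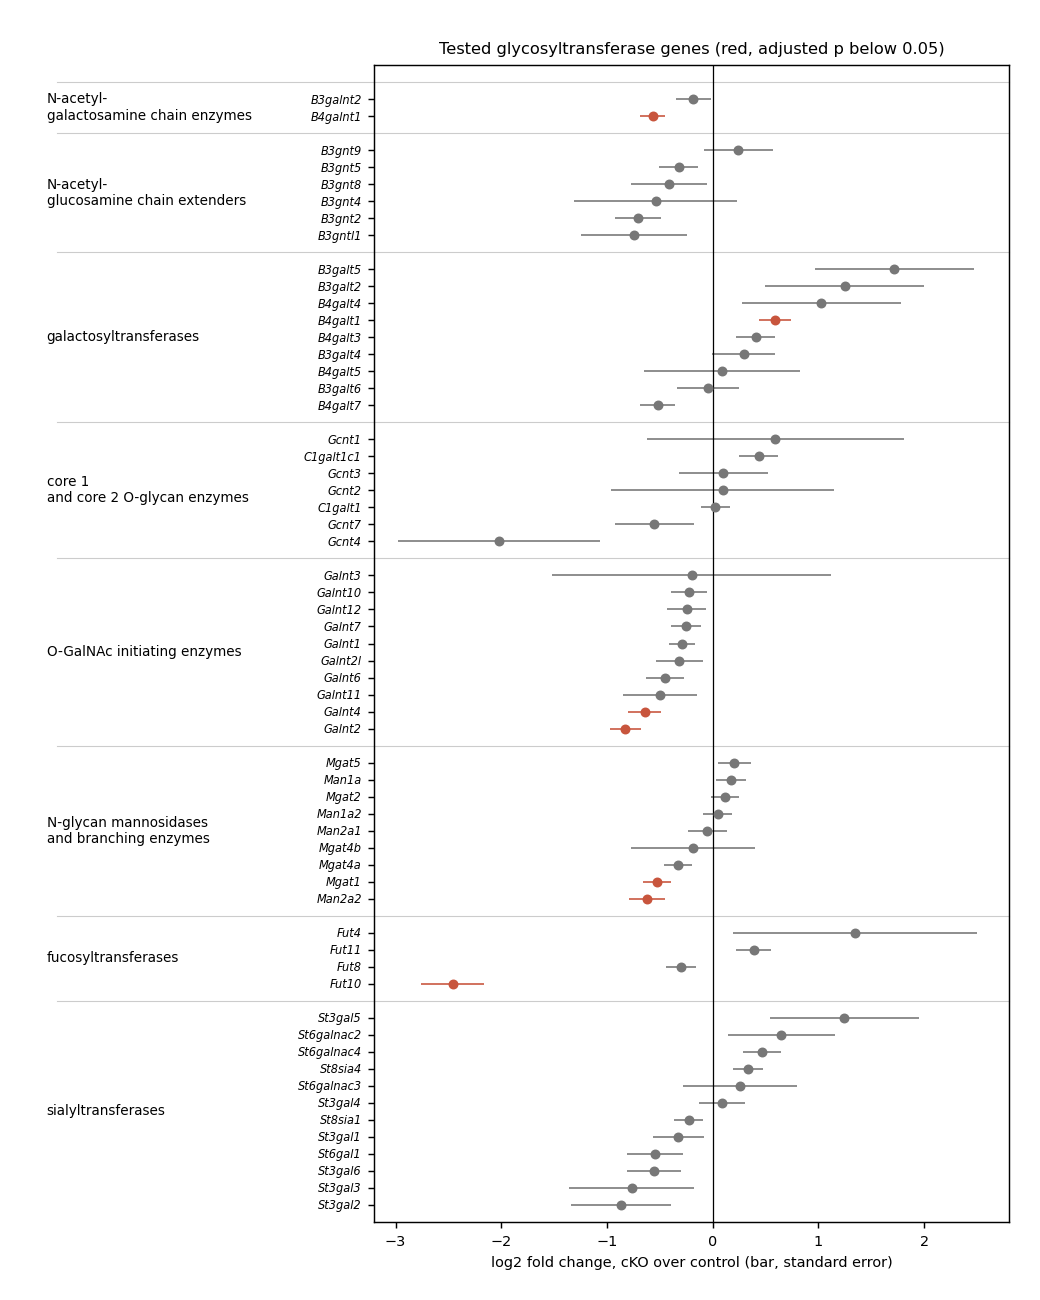
Log2 fold change (cKO over control) with its S.E. (standard error) for the 59 tested genes, grouped by role, with genes past an adjusted p of 0.05 in red. Fut10, at -2.46, lies farthest from 0 among the red points, and all 10 Galnt genes lie below 0.

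The promoters of Mgat1 and B4galt1 are shown because these are the called genes, 1 lower and 1 higher, for which the RefSeq table used here (GRCm38.p6) holds a sequence. Each runs 5′ to 3′ on the strand of the gene, from 250 bases before a start site to 50 from it on, with capitals for GGGCGG or its reverse complement CCGCCC, the letters of a GC box. Mgat1 is shown at chr11:49243941-49244240 on the plus strand, where the start site is also the first base of the gene in GENCODE M21, and B4galt1 at chr4:40853935-40854234 on the minus strand.
Mgat1: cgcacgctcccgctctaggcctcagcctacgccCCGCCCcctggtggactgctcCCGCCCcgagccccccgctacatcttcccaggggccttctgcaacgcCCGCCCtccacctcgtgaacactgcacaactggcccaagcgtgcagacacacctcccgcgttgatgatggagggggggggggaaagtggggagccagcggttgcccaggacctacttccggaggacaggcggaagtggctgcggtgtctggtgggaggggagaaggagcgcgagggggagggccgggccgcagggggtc
B4galt1: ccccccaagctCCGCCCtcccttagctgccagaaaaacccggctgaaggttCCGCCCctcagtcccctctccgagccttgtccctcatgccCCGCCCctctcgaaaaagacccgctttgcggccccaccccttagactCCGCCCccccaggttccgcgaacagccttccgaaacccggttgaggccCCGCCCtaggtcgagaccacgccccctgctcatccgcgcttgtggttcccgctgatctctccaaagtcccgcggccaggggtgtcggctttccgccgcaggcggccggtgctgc
The Mgat1 window held 3 such matches and had a GC content of 70.7%, and that of B4galt1 held 5 and had 68.3%, where the median of 32851 promoters was 52.7%. The matches in either window did not overlap each other. At least 1 match was found in 61.7% of 60 promoters of 42 tested glycosyltransferase genes and in 35.7% of all promoters. TATAAA or TTTATA, which cannot overlap it, was found in 1.67% and 13.6%. The 60 promoters belong to genes that passed the filter on low counts, while the full set was not filtered by expression. These sets are unlike and the difference was not tested, so nothing is read from the shares about the family. The table also holds 2 windows at later starts of Mgat1, not shown, with 0 and 3 matches and a GC content of 51.3% and 62.7%. A match is a description of the sequence and not a site.

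Among the fucosyltransferases, Fut10 (ENSMUSG00000046152, chromosome 8 of GRCm38 from 31187331 to 31261738, plus strand, 6 exons) fell most. It was at 12.4, 13.2 and 12.3 CPM in control libraries 1, 2 and 3 and at 2.01, 1.82 and 3.05 CPM in the libraries labelled cKO 1, 2 and 3. Every library labelled cKO was far below the lowest control library. The mean was 12.6 ± 0.498 CPM in the controls and 2.29 ± 0.660 CPM in the others (± S.D., n = 3), or 18.2% of control, with a log2 fold change of -2.46 (S.E., the standard error, 0.30; edgeR adjusted p = 0.00366). The exact permutation test (two-sided) over these libraries gave 0.1, its smallest possible p at 3 against 3. When each library was left out in turn, the log2 fold change lay between -2.72 and -2.32, and the edgeR adjusted p between 0.00252 and 0.0253. Fut11, its closest relative in the family, was at 28.5 ± 3.91 and 37.3 ± 3.85 CPM (mean ± S.D., n = 3), with all 3 libraries labelled cKO above the controls, and did not pass (log2 fold change 0.39, edgeR adjusted p = 0.16). Fut8 adds the core fucose of N-glycans and had the highest level of the role. It was at 77.1 ± 11.0 and 62.5 ± 5.22 CPM (mean ± S.D., n = 3; log2 fold change -0.30, edgeR adjusted p = 0.198). Fut4, which makes Lewis-type fucose structures, had at most 2.15 CPM in any library (edgeR adjusted p = 0.488), and Fut7, needed for selectin ligands, had 0 counts in all 6.

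In the N-glycan pathway, the enzyme that opens the branching steps and 1 mannosidase that acts on its product were called lower, while the later branching enzymes were not called. Of the latter, Mgat4a, named after its values were seen, was also lower without overlap, at 75.9 ± 5.34 and 60.4 ± 6.98 CPM (mean ± S.D., n = 3; log2 fold change -0.33, edgeR adjusted p = 0.146). Mgat1 (ENSMUSG00000020346, chromosome 11 from 49244191 to 49263030, plus strand, 4 exons) adds the first branch and is needed for all hybrid and complex N-glycans. Its levels were 139, 143 and 139.5 CPM in control libraries 1, 2 and 3 and 115, 86.7 and 90.2 CPM in the libraries labelled cKO. The controls lay close together, and cKO 1 was nearer to them than cKO 2 and cKO 3, with no overlap. The mean dropped from 140.4 ± 2.15 to 97.2 ± 15.3 CPM (mean ± S.D., n = 3), with a log2 fold change of -0.53 (S.E. 0.13, edgeR adjusted p = 0.0330). The call was lost without control 2, control 3, cKO 2 or cKO 3 (edgeR adjusted p = 0.103, 0.0771, 0.104 and 0.145).

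Man2a2 (ENSMUSG00000038886, chromosome 7 from 80349097 to 80371375, minus strand, 24 exons) encodes a mannosidase that trims the product of Mgat1. Control libraries were at 40.8, 34.0 and 40.2 CPM and the libraries labelled cKO at 25.3, 28.4 and 20.9 CPM. These did not overlap, and the means were 38.3 ± 3.78 and 24.8 ± 3.78 CPM (mean ± S.D., n = 3; log2 fold change -0.63, S.E. 0.17, edgeR adjusted p = 0.0446). In the deposited FPKM the groups did overlap, with 6.58, 6.45 and 6.38 in the controls and 4.30, 7.24 and 3.20 in the libraries labelled cKO. The call was the least firm of the 7, since it was lost without any single library (edgeR adjusted p from 0.0533 without control 1 to 0.171 without cKO 3), with library totals alone (0.0518) and with a replicate block (0.0619). Hddc3 overlaps 1451 nt of Man2a2 on the other strand, and did not pass (log2 fold change 0.09, edgeR adjusted p = 0.869).

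The related mannosidase Man2a1, which acts on the same chains, was at 19.1 ± 3.04 and 18.5 ± 1.07 CPM (mean ± S.D., n = 3; log2 fold change -0.05, edgeR adjusted p = 0.898), and its sign turned without control 1. Mgat2, which acts next, was at 144, 110.0 and 124 CPM in the controls and at 136, 126 and 147 CPM in the libraries labelled cKO. The groups overlapped (log2 fold change 0.12, S.E. 0.13, edgeR adjusted p = 0.616). Mgat5, which adds the branch that galectins favour, was at 67.2 ± 7.84 and 77.3 ± 13.2 CPM (mean ± S.D., n = 3; log2 fold change 0.20, edgeR adjusted p = 0.441). Mgat3, which adds the bisecting residue, had 0 counts in all 6 libraries, so that no ratio of Mgat5 to Mgat3 could be computed.

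**Figure D3:**
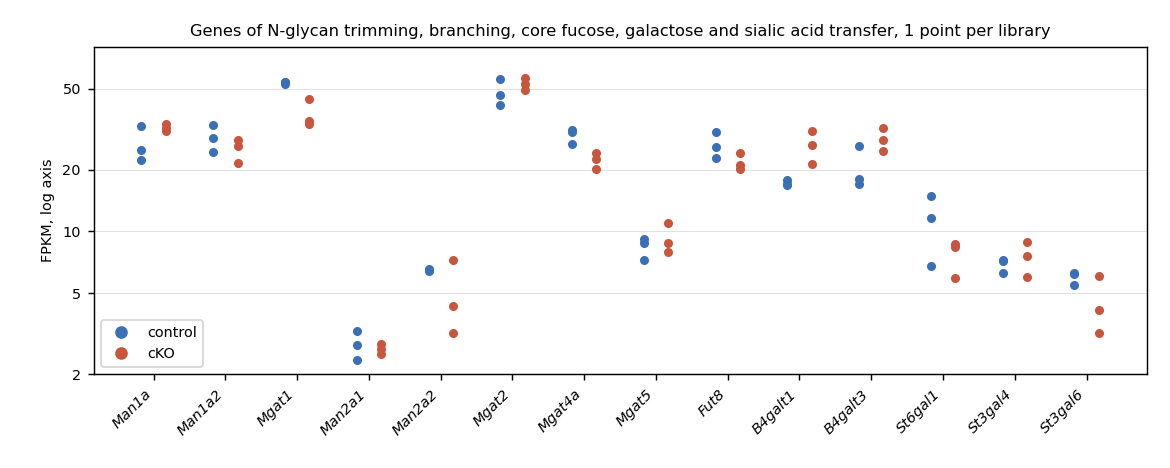
Deposited FPKM (log axis) of 14 genes along the N-glycan pathway, 1 point per library (blue, control; red, labelled cKO). Mgat1 lies lower and B4galt1 higher in the libraries labelled cKO without overlap, whereas Man2a2 overlaps on this scale through cKO 2, at 7.24 FPKM.

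Among the enzymes that start mucin-type O-glycans, 10 of 20 were tested. Of these, 0 were called higher and 2 lower, beside 4.47% and 5.89% of all tested genes. All 10 had a log2 fold change below 0, where this held for 50.2% of all tested genes. Their median was -0.30, and it lay between -0.52, without control 1, and -0.23, without cKO 1, when libraries were left out. All 10 were also below 0 under DESeq2, limma-voom, RLE factors, library totals and the replicate block, as were 11 of 12 with no filter on low counts and 9 of 10 without control 2, cKO 1 or cKO 2. The genes are not independent of each other, and those not called had adjusted p above 0.05. Galnt2 (ENSMUSG00000089704, chromosome 8 from 124231391 to 124345724, plus strand, 16 exons) was at 75.1, 74.4 and 67.4 CPM in the controls and at 36.6, 37.6 and 47.9 CPM in the libraries labelled cKO. All 3 libraries labelled cKO lay well below the controls. The mean dropped from 72.3 ± 4.22 to 40.7 ± 6.26 CPM (mean ± S.D., n = 3), or 56.3% of control (log2 fold change -0.83, S.E. 0.15, edgeR adjusted p = 0.00968). It passed in all 6 fits that left out a library (edgeR adjusted p between 0.00865 and 0.0476).

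The spans of Galnt2 and Galnt2l, also a member, share 114332 nt of the same strand, introns included. Shared exons were not examined, and reads could be split between these genes by the counting. Galnt2l was at 33.9 ± 6.46 and 27.3 ± 7.33 CPM (mean ± S.D., n = 3; log2 fold change -0.32, edgeR adjusted p = 0.399). Their sum was 102, 113 and 104 CPM in the controls and 56.7, 72.4 and 75.0 CPM in the libraries labelled cKO. The sums did not overlap either (log2 ratio of means -0.64, exact two-sided permutation p = 0.1, the smallest possible).

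Galnt4 (ENSMUSG00000090035, chromosome 10 from 99108159 to 99113247, plus strand, 1 exon), known for adding sugars to peptides that already carry some, was at 59.3, 49.2 and 52.9 CPM in the controls and at 31.7, 40 and 31.6 CPM in the libraries labelled cKO. The groups did not overlap, and cKO 2 was nearest to the controls. The log2 fold change was -0.64 (S.E. 0.16, edgeR adjusted p = 0.0299). The call was lost without control 2, control 3, cKO 1 or cKO 3 (edgeR adjusted p = 0.0652, 0.0689, 0.104 and 0.132). All 5089 nt of Galnt4 lie within the span of Poc1b, introns included, on the same strand, and Poc1b did not pass (log2 fold change -0.31, edgeR adjusted p = 0.347). Whether exons of both genes overlap was not examined, so reads could be split between them by the counting. Galnt1, the member of the role with the highest level, was at 127, 146 and 132 CPM in the controls and at 103, 107 and 121 CPM in the libraries labelled cKO. In CPM the groups did not overlap, but Galnt1 did not pass (log2 fold change -0.29, S.E. 0.12, edgeR adjusted p = 0.144). In the deposited FPKM they overlapped, with 39.1 in cKO 3 and 38.7 in control 1.

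Of the 7 tested genes that extend the first sugar into core 1 and core 2, 0 were called by edgeR, DESeq2 or limma-voom. At an unadjusted edgeR p below 0.05, 1 of them was higher, beside 13.3% of all tested genes. C1galt1, which makes core 1, was at 122 ± 18.6 and 124 ± 8.90 CPM (mean ± S.D., n = 3; log2 fold change 0.02, edgeR adjusted p = 0.936), and C1galt1c1, its chaperone, at 19.3 ± 3.63 and 26.1 ± 0.979 CPM (mean ± S.D., n = 3; log2 fold change 0.43, edgeR adjusted p = 0.157). C1galt1c1 had no overlap between the groups and passed without control 1 (log2 fold change 0.60, edgeR adjusted p = 0.0415). Gcnt1, the core 2 enzyme, was near the floor, at 0.778, 0.720 and 0.116 CPM in the controls and 0, 1.87 and 0.554 CPM in the libraries labelled cKO. It was the least certain of the named genes (log2 fold change 0.59, S.E. 1.21, edgeR adjusted p = 0.797), and a floor of 3 counts equals 0.114 to 0.158 CPM before TMM scaling.

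St3gal1, which competes with Gcnt1 for core 1, was at 14.6, 15 and 15.3 CPM in the controls and at 15.7, 8.90 and 11.2 CPM in the libraries labelled cKO. The library cKO 1 was above every control, and cKO 2 and cKO 3 were below them (log2 fold change -0.33, S.E. 0.24, edgeR adjusted p = 0.419). Within a library, the log2 ratio of the FPKM of Gcnt1 to that of St3gal1 was -4.42, -3.85 and -6.20 in the controls and -2.38 and -4.34 in the libraries labelled cKO 2 and 3, and could not be computed in cKO 1, where Gcnt1 was at 0. In each library with a value the level of Gcnt1 was therefore below that of St3gal1, and the groups overlapped.

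Of the 12 tested sialyltransferases, St3gal1 included, 0 were called by edgeR, DESeq2 or limma-voom. At an unadjusted edgeR p below 0.05, 2 were higher and 0 lower, beside 13.3% and 14.6% of all tested genes. The median log2 fold change of the 12 was -0.07, and 0.05 without cKO 1. St8sia1, the GD3 synthase, had the highest level and was at 101 ± 5.29 and 86.1 ± 12.6 CPM (mean ± S.D., n = 3; log2 fold change -0.23, edgeR adjusted p = 0.32). St8sia4, a polysialic acid synthase, was at 63.6 ± 9.02 and 80.2 ± 7.51 CPM (mean ± S.D., n = 3), and passed without control 1 only (log2 fold change 0.34 with all libraries and 0.45 without it, edgeR adjusted p = 0.159 and 0.0401). St6gal1, which caps N-glycans with sialic acid, was at 50.4, 65.1 and 29.8 CPM in the controls and at 37.3, 25.5 and 36.9 CPM in the libraries labelled cKO. The controls spread more widely than the difference between the groups (log2 fold change -0.54, S.E. 0.27, edgeR adjusted p = 0.215). St3gal6 was at 11.6 ± 0.226 and 7.92 ± 2.0 CPM (mean ± S.D., n = 3), without overlap in CPM (log2 fold change -0.55, edgeR adjusted p = 0.187). In the deposited FPKM its groups overlapped, with 6.06 in cKO 2 and 5.47 in control 2. St3gal4, which like St3gal6 caps galactose ends, did not pass either (log2 fold change 0.09, edgeR adjusted p = 0.837). St8sia6, another of the family that extends sialic acid, had 11 counts in all, every one in control library 2, and was not tested.

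The galactosyltransferases held the only member that was higher. B4galt1 (ENSMUSG00000028413, chromosome 4 from 40804602 to 40854005, minus strand, 6 exons) adds galactose to the ends of N-glycan branches. It was at 67.4, 72.1 and 68.9 CPM in the controls and at 105, 83.9 and 124 CPM in the libraries labelled cKO. The controls were close together and the libraries labelled cKO spread, all above them. The mean was 69.4 ± 2.40 in the controls and rose to 104 ± 20.1 CPM (mean ± S.D., n = 3), or 1.5-fold (log2 fold change 0.59, S.E. 0.15, edgeR adjusted p = 0.0375). The call was lost without control 2, control 3, cKO 1 or cKO 3 (edgeR adjusted p = 0.0971, 0.0924, 0.107 and 0.166). B4galt3, a related enzyme with the highest mean FPKM of the role over all libraries (24.3, beside 21.8 for B4galt1, which was above it in cKO 3), was at 40.2, 30.5 and 26.4 CPM in the controls and at 43.3, 47.7 and 37.8 CPM in the libraries labelled cKO. Control 1 reached into the range of the latter (log2 fold change 0.41, edgeR adjusted p = 0.183), and the gene passed without it (0.59, edgeR adjusted p = 0.0360). Of the 9 tested galactosyltransferases, 7 had a log2 fold change above 0 (median 0.41), and 5 to 8 of 9 did when libraries were left out in turn (median 0.28 to 0.59). B4galt7, which starts the sugar linker of proteoglycans and is named after its values were seen, was at 39.5, 32.4 and 33.0 CPM in the controls and at 27.6, 21.5 and 24.0 CPM in the libraries labelled cKO. It had no overlap and was called by DESeq2 (adjusted p = 0.0488) but not by edgeR (log2 fold change -0.52, adjusted p = 0.073).

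B4galnt1 (ENSMUSG00000006731, chromosome 10 from 127165225 to 127172330, plus strand, 11 exons) encodes the enzyme that turns GM3 and GD3 into GM2 and GD2, and so acts on the product of St8sia1. It was at 101, 102 and 106 CPM in the controls and at 74.8, 69.6 and 63.6 CPM in the libraries labelled cKO. Both groups were tight and far apart. The mean dropped from 103 ± 2.78 to 69.3 ± 5.61 CPM (mean ± S.D., n = 3), or 67.4% of control (log2 fold change -0.57, S.E. 0.12, edgeR adjusted p = 0.0174). The call was lost without control 2, control 3, cKO 2 or cKO 3 (edgeR adjusted p = 0.0614, 0.0565, 0.0522 and 0.10). Slc26a10 overlaps 938 nt of it on the other strand and had at most 2.29 CPM in any library.

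Of the enzymes that extend chains with N-acetylglucosamine, B3gnt2, the main maker of poly-N-acetyllactosamine, was at 189.8, 132 and 93.4 CPM in the controls and at 84.8, 79.9 and 89.3 CPM in the libraries labelled cKO. The controls spread from near the libraries labelled cKO, in control 3, to a level far above them, in control 1. It did not pass (log2 fold change -0.71, S.E. 0.21, edgeR adjusted p = 0.0616), but passed with DESeq2 (adjusted p = 0.0121), without a filter on low counts (edgeR adjusted p = 0.0279) and without control 3 (edgeR adjusted p = 0.0184). Leaving out control 1 gave a log2 fold change of -0.41 (adjusted p = 0.0837 in edgeR). B3gnt5, which starts lacto-series glycolipids, was at 58.5 ± 11.6 and 46.8 ± 7.70 CPM (mean ± S.D., n = 3; log2 fold change -0.32, edgeR adjusted p = 0.287).

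Levels of different genes were compared by FPKM, the deposited value per length of gene and per library size. A mean of at least 1 FPKM over the 6 libraries was reached by 45 of the 99 genes and at least 10 FPKM by 22. In the controls the highest means were those of Mgat1 (53.6), Mgat2 (47.9), B3gnt2 (47.4), B4galnt1 (43.0) and Galnt1 (40.5 FPKM). In the libraries labelled cKO they were those of Mgat2 (52.6), Mgat1 (37.5), Galnt1 (33.9), Man1a (32.1) and B3gnt2 (29.4 FPKM). The order thus differed between the groups, and most neighbours in it overlapped over the libraries, apart from Mgat2 and Mgat1 in the libraries labelled cKO. The N-glycan mannosidases and branching enzymes made up 29.1% of the summed FPKM of all 99 genes and the enzymes that start O-glycans 21.9%. Next in the controls were the chain extenders (72.2 ± 21), the sialyltransferases (71.2 ± 3.97) and the galactosyltransferases (66.8 ± 10.8 FPKM, mean ± S.D., n = 3), which overlapped. In the libraries labelled cKO the galactosyltransferases (82.5 ± 5.53) were above the sialyltransferases (70.9 ± 2.62) and the extenders (49.3 ± 4.43 FPKM, mean ± S.D., n = 3). The sum of all 99 was 662 to 787 FPKM in the controls, highest in control library 1, and 633 to 647 FPKM in the libraries labelled cKO. These ranges lay close to each other without overlap. FPKM are not TMM-scaled, and the sums were neither tested nor set beside those of other genes, so nothing is read from them about the family. For the 16 N-glycan genes the sum was 206 ± 18.9 and 188 ± 5.28 FPKM, and for the 20 genes that start O-glycans 165 ± 3.61 and 132 ± 16.4 FPKM (mean ± S.D., n = 3). Fut10, with the largest drop among the called genes, was at 4.03 ± 0.167 FPKM in the controls and 0.727 ± 0.218 FPKM in the libraries labelled cKO (mean ± S.D., n = 3), a low level beside those above.

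**Figure D4:**
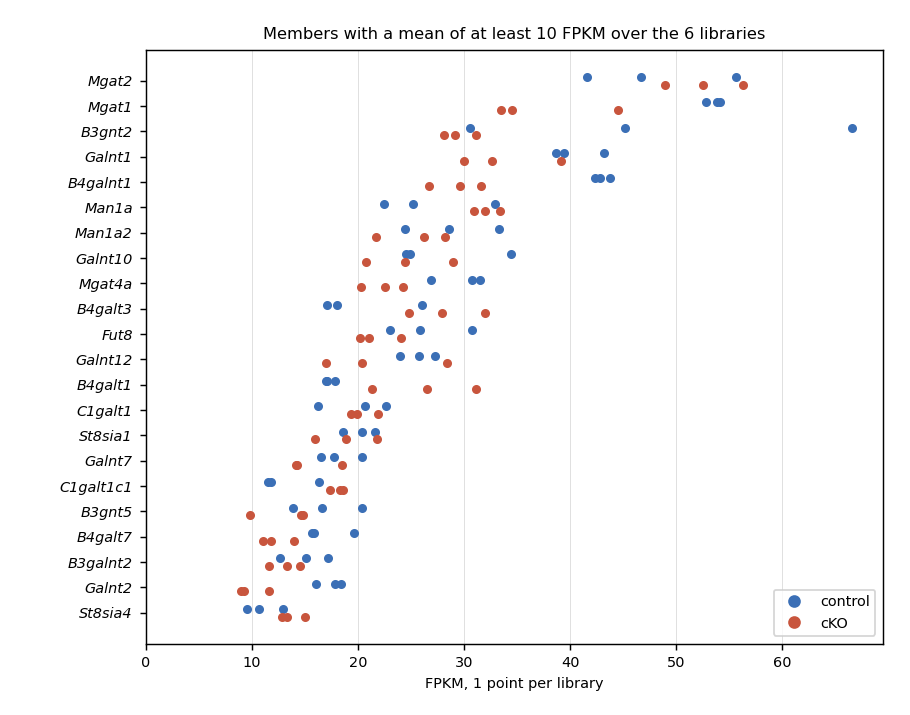
Deposited FPKM of the 22 genes with a mean of at least 10 FPKM over all 6 libraries, 1 point per library (blue, control; red, labelled cKO), ordered by that mean. Mgat2 has the highest mean over both groups, 50.3 FPKM, while Mgat1 leads in the controls, and the groups of most genes overlap.

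By the KEGG pathways of the deposited table, mucin-type O-glycan biosynthesis held 30 of the genes, of which 18 were tested, 0 called higher and 2 lower (Galnt2 and Galnt4), with a median log2 fold change of -0.27. N-glycan biosynthesis held 20, of which 13 were tested, 1 called higher (B4galt1) and 2 lower (Mgat1 and Man2a2), with a median of -0.05. The ganglio series held 11, of which 8 were tested and 1 called lower (B4galnt1), with a median of 0.02. Among the other pathways, the globo series, with 4 tested, and the heparan sulfate and chondroitin sulfate pathways, with 2 tested each, had 0 called by edgeR. Of all tested genes, 4.47% were called higher and 5.89% lower. The difference from these shares was not tested, so nothing is read from the counts about a pathway.

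The genes around these enzymes were read from hand-written lists. Of all tested genes, 4.47% were called higher and 5.89% lower by edgeR. At an unadjusted edgeR p below 0.05 these shares were 13.3% and 14.6%. The difference of a list from the shares was not tested, so nothing is read from the counts about a list. Among 28 genes for the supply of sugar nucleotides, 0 were called higher and 1 lower, with a median of -0.07. This was Cmas, which activates sialic acid for every sialyltransferase. It was at 107, 147 and 146 CPM in the controls and at 81.5, 73.2 and 66.2 CPM in the libraries labelled cKO. All 3 of the latter were below the controls (log2 fold change -0.86, S.E. 0.15, edgeR adjusted p = 0.00941). The 32 tested genes for the transfer and first trimming of the N-glycan block had 0 calls by edgeR, 1 higher by DESeq2 and by limma-voom, and a median of -0.08, with 2 higher and 4 lower at an unadjusted edgeR p below 0.05. The 9 tested genes of O-glycosylation on Notch and the 6 tested sialidases and related enzymes had 0 calls by all 3 tools and medians of -0.06 and -0.33. At an unadjusted edgeR p below 0.05 the Notch list had 1 gene higher and 1 lower, and the sialidases 0 and 3.

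Of 7 tested sulfotransferases of glycans, 0 were called higher and 2 lower by edgeR, beside 4.47% and 5.89% of all tested genes. Chst10, which makes the HNK-1 sulfate, was at 93.7, 108 and 83.9 CPM in the controls and at 43.2, 44.1 and 40.5 CPM in the libraries labelled cKO. The groups were far apart (log2 fold change -1.16, S.E. 0.14, edgeR adjusted p = 0.00349). Chst12, a chondroitin sulfotransferase, had a log2 fold change of -0.52 (S.E. 0.15, edgeR adjusted p = 0.0497), and was called by DESeq2 (adjusted p = 0.0234) but not by limma-voom (0.0522). Of 20 tested surface carriers of glycans and lectins that bind them, edgeR called 1 higher and 4 lower, with a median of -0.24. DESeq2 called 1 and 6, and limma-voom 1 and 5. The difference from the 4.47% and 5.89% of all tested genes called by edgeR was not tested. Lgals3, which encodes galectin-3 and is also abundant in macrophages, was at 0.986, 0.925 and 0.466 CPM in the controls and at 5.11, 4.79 and 3.23 CPM in the libraries labelled cKO. It was low in every library and without overlap (log2 fold change 2.47, S.E. 0.52, edgeR adjusted p = 0.0177), and it rose with the macrophage markers, whose part was not tested. Lgals1, another galectin gene at a far higher level, went the other way (means 183 and 129 CPM, log2 fold change -0.51). It was called by DESeq2 (adjusted p = 0.0323) but not by edgeR (0.0750) or limma-voom (0.0797). The carriers called lower by edgeR were Cd52 (log2 fold change -1.77, edgeR adjusted p = 0.00392), Trac of the T cell receptor (-0.67, 0.0103), Ptprc, which encodes CD45 (-0.45, 0.0321), and Cd8b1 (-0.58, 0.0383). Cd4 was called lower by DESeq2 (adjusted p = 0.0158) and limma-voom (0.0387) but not by edgeR (0.0515). Trac, Cd8b1 and Cd4 are also features of DP thymocytes.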

How the data were processed

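RNA was extracted from sorted DP thymocytes, and cDNA was pre-amplified and sequenced on an Illumina platform in 3 control and 3 cKO libraries. The deposited counts are reads per gene as the authors counted them, without normalization, and the deposited FPKM are the authors' values per gene length and library size. The submitters' processing notes name fastp 0.18.0, Bowtie2 2.2.8, HISAT2, StringTie and RSEM without a role, while build and annotation were not given in the sources used here. Columns with the authors' own fold changes and p-values were not used. Pre-amplified reads without molecular identifiers are not independent molecules, so floors cover counting error only.

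Counts were fitted in R 4.3.3 with edgeR 4.0.16 (TMM, filterByExpr at a count of 10 and a total of 15, glmQLFit, genotype as the only term, Benjamini-Hochberg adjustment over 11488 genes). The fit covers the whole table. Single values were also compared by an exact two-sided permutation test over all 20 assignments. The scripts were tested on simulated data. Gene positions are from GENCODE M21 on GRCm38, matched by Ensembl identifier, and overlaps are those of whole gene spans, introns included. The genes named are those past an adjusted p of 0.05, a fixed list of 27 genes that act on glycans of thymocytes, and the gene with the highest mean FPKM of each role. Genes of the other lists with an adjusted p below 0.05 are named beside their counts. The genes and lists were chosen with earlier results of these data known. Alternatives were DESeq2 1.42.0, limma-voom (limma 3.58.1), RLE factors, library totals alone, no filter, a filter at a mean of 5 CPM, a replicate block and leaving out each library in turn. No 2 libraries of a group were duplicates (chi-square per degree of freedom at least 19.8).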

Additional observations from a re-analysis of the deposited data

How the results depend on the processing

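The called glycosyltransferase genes numbered 1 higher and 6 lower, and with 1 library left out in turn 0 to 5 were higher and 2 to 6 lower, while all tested genes gave 42 to 1000 higher and 78 to 1030 lower, against 514 and 677 with all libraries. DESeq2 called 953 of all tested genes higher. Counts of members past the fold threshold did not move beyond 1.5 times in any alternative run. Same-numbered libraries did not deviate together (correlations 0.045, 0.038 and -0.030), so the numbers were not taken as pairs; with the replicate block, 1 member was higher and 5 lower, and Man2a2 lost its call (log2 fold change -0.63, edgeR adjusted p = 0.0619). The sign turned for 4 of the named genes, none of them called. Gcnt1, at 0.59 with few counts, had -0.53 under limma-voom and -0.93 to 1.18 when libraries were left out, and of the genes near 0 St3gal4 had -0.0671 to 0.24, Man2a1 -0.14 to 0.0819 and C1galt1 -0.10 to 0.11, and the cause was not tested. In the alternatives that kept all libraries, 175 values of the named genes kept direction and call, 2 lost the call and 2 gained it. The 1 that reversed was Gcnt1 under limma-voom. With a library left out, from 1 named gene (without control 1) to 5 (without control 2, control 3 or cKO 3) lost the call. The depth leaves genes under about 0.158 CPM, before TMM scaling, within the floor of 3 counts.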
